A study of Mus musculus with 7 samples.

Results

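The foregut and pharyngeal endoderm lies next to the second heart field (SHF), and 9 genes used as markers of endoderm and epithelium were examined in the open chromatin of sorted SHF cells: *Foxa1*, *Foxa2*, *Sox17*, *Hhex*, *Nkx2-1*, *Pax8*, *Pax9*, *Epcam* and *Cdh1*. The members were the 9 genes as named, and their loci ran from 50 kb upstream to 50 kb downstream of each gene body. These loci held 61 of the 71981 merged accessible regions of the genome. ATAC-seq, in which a transposase cuts accessible DNA and adds sequencing adapters, was performed on 7 libraries from mouse embryos at embryonic day 9.5. Cells of the dissected SHF region were sorted into GFP+ (replicates 3 and 4) and GFP- (replicates 1 and 2) cells of the Hoxb1-GFP line, and, from Mef2c-Cre;Rosa tdT embryos, into Tomato+ (replicates 6 and 8) and Tomato- (replicate 7) cells. GFP is expressed from an allele of *Hoxb1* and marks posterior SHF cells. The paper's methods appear to list this allele as the mutant allele *Hoxb1-*, and the labels do not give its copy number. The Cre is driven by the anterior heart field enhancer of *Mef2c*, so that the Tomato reporter also stays on in descendants that have left the field. The sort-negative cells were all other cells of the same dissection, a mixture that was not sorted for endoderm, and several embryos were pooled for each genotype. Each line was sorted for its own reporter only. GFP- cells can thus include SHF cells that Tomato would mark, and Tomato- cells can include SHF cells that GFP would mark. The run name in the header of the Tomato+ replicate 6 list begins with YFP, a reporter that its labels do not name, and the library was grouped by its labels.

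Endoderm lines the gut tube and its pharyngeal pouches, and its identity is set by transcription factors that act in sequence. FOXA proteins are pioneer factors that bind closed chromatin, SOX17 and HHEX act early in definitive and anterior endoderm, and NKX2-1, PAX8 and PAX9 mark thyroid, lung and pouch territories. EPCAM and E-cadherin (*Cdh1*) are adhesion proteins of epithelial cells. None of the 9 is limited to endoderm: *Foxa2* is also used by the floor plate, *Sox17* and *Hhex* by endothelium, *Nkx2-1* by the ventral forebrain, *Pax8* by the kidney, *Pax9* by the sclerotome, and *Epcam* and *Cdh1* by surface ectoderm.

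The DNA of 4 regions is given here, all single-copy sequence of the plus strand of GRCm38, because one was found in positive libraries only, one was the only region whose ranks separated the sorts, one was the strongest single-copy region away from any promoter, and one is the textbook binding platform for repressors of an epithelial gene. Capitals mark matches on either strand to TGTTTAC (the FOX motif), ACAATG (SOX), AGATAA (bound by GATA factors), CAAGTG (NKX2), GGAATG (TEAD), CAGGAAG (ETS), AACCNGTT (GRHL) or CAGGTG (an E-box bound by SNAI factors).
Foxa2 upstream, chr2:148091788-148092087: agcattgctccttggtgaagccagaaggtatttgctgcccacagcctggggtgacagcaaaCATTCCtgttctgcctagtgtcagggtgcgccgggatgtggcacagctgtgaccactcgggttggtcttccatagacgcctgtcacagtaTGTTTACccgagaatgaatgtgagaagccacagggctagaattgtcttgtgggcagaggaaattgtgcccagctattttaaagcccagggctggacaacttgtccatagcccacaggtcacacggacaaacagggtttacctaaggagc
Pax9 upstream, chr12:56681400-56681699: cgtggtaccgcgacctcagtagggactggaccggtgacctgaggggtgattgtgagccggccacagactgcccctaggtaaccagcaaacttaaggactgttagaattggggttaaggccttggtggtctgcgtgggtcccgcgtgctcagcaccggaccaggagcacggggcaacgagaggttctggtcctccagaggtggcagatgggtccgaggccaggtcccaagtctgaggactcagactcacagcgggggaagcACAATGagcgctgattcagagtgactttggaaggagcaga
Foxa1 upstream, chr12:57575973-57576272: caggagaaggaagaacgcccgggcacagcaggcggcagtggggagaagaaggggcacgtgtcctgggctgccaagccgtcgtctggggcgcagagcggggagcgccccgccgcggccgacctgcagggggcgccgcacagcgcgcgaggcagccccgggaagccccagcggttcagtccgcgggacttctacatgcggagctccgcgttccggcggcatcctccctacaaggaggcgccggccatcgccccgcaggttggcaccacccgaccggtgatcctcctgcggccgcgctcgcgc
Cdh1 before the start site, chr8:106603050-106603349: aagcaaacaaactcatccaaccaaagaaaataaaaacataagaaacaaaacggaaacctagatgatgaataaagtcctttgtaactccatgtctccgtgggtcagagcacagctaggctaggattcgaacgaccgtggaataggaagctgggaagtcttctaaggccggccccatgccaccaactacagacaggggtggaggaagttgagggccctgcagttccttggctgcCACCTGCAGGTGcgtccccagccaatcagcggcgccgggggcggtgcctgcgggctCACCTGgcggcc

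The first window held a FOX match that began 1 bp from the strongest summit of its region. The peak was strongest in Tomato+ replicate 6, and the tag shift of 37 bp named in the header of that list can move summits. The distance of the match from the summits in the GFP+ libraries was not examined. FOX matches were found in 2.72% of the 71981 windows of 300 bp around the summits of all merged regions. The *Foxa2* window also held a TEAD match on the minus strand, a motif present in 14.7% of the windows. The *Pax9* window held 1 SOX match, 110 bp from the summit, against 10.5% of all windows with at least 1. The *Foxa1* window held none of the 8 motifs and was rich in GC (74.0%), with 38 CpG dinucleotides. In the 300 bases before the *Cdh1* transcription start site (TSS), 3 E-box matches lay 68, 62 and 12 bp upstream without sharing a base, whereas 20.4% of the 31603 promoter windows of the same length held at least 1 match and 0.377% held at least 3. Such E-boxes are where SNAI and ZEB repressors are known to bind. The other motifs were in 8.56% (GATA), 13.0% (NKX2), 11.5% (ETS), 1.68% (GRHL) and 22.0% (E-box) of all windows. Over the 61 member windows, FOX matches occurred in 2, the *Foxa2* window and a window 11.1 kb downstream of the *Foxa1* TSS, and GRHL matches in 0.

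Each value below is the fold enrichment, the peak caller's ratio of the pileup to the local background, with the rank of the peak by this value as a percent of all deposited peaks of its library, 0 being the top. A region is a union of peaks with q at most 0.01 that come from at least 2 libraries. The lists held between 187914 and 291287 deposited peaks, of which 64306 to 77746 passed q at most 0.01, from 52340195 to 93075095 tags per library. Promoter peaks of 6 genes of the SHF mesoderm were found for 3 to 5 genes in the positive libraries and for 4 to 6 in the negative ones, so these counts did not separate the sorts. By rank, 0 of their 5 promoter regions separated the sorts. By fold enrichment, *Mef2c* was higher in each positive library (5.641 to 8.218) than in each negative one (4.351 to 5.596, limma adjusted p = 0.824). The values of the sorts overlapped at *Isl1*, *Hoxb1*, *Osr1* and *Fgf10*. Neural tube promoters were open in both sorts (4 to 6 of 6, and 6 of 6). In the other lists, the ranges in positive and negative libraries were 0 to 3 and 1 to 3 of 6 surface ectoderm and epithelial genes, 1 to 3 and 1 to 4 of 7 endothelial genes, 0 to 1 and 1 to 3 of 6 blood genes, 1 to 2 and 1 of 4 neural crest genes, and 1 to 3 and 1 to 2 of 4 cardiomyocyte genes. The part of these cells in the values below was not tested.

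In every library, the promoter windows of the 9 genes, from 1000 bp upstream to 100 bp downstream of a TSS, were weakly accessible or held no deposited peak. The number of genes with a promoter peak overlapped between positive and negative sorts. In this window, a peak with q at most 0.01 was present for 3 and 5 of the 9 genes in GFP+ cells, 1 and 6 in Tomato+ cells, 3 and 3 in GFP- cells and 5 in Tomato- cells. The lowest and the highest counts were thus both from Tomato+ libraries, and the groups overlapped. The mean was 3.75 ± 2.22 (SD, n = 4) in positive and 3.67 ± 1.15 (SD, n = 3) in negative libraries (p = 1, two-sided exact permutation test). The smallest p that 4 against 3 libraries allow is 0.0571, so the test could not pass 0.05. The difference of the means, 0.083 genes, was 1.0 without Tomato+ replicate 6. For comparison, 60.8% to 63.7% of the 21000 protein-coding genes had such a peak. The counts depend on the window, because several genes held peaks further inside the gene. With 1000 bp on either side of the TSS, each of the 9 genes held a peak of q at most 0.01 in Tomato+ replicate 8 and in Tomato- cells. In Tomato+ replicate 6, *Foxa1*, *Foxa2*, *Nkx2-1*, *Pax8* and *Cdh1* still had none. The share of all genes with a peak in that wider window was not counted. In bulk libraries, a region open in fewer cells and a region less open in each cell give the same signal. The count of peaks with q at most 0.01 at the 9 loci together was 60, 64, 59 and 52 in the positive and 53, 63 and 62 in the negative libraries. Per 10000 peaks of the library this was 8.42 ± 0.403 (SD, n = 4) against 8.36 ± 0.529 (SD, n = 3), a difference of 0.062 (p = 0.743, two-sided exact permutation test).

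**Figure D1:**
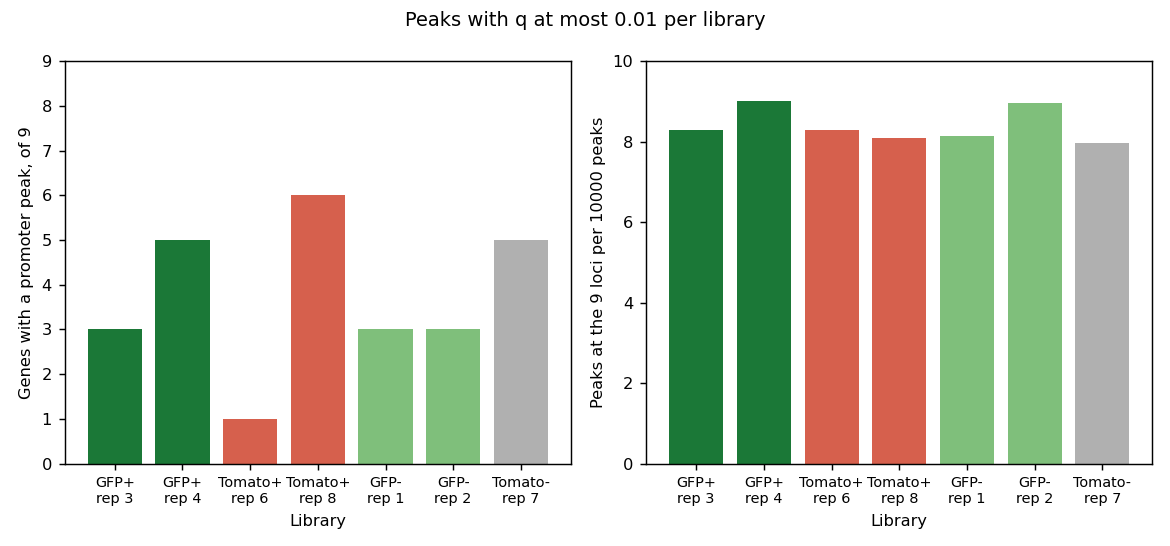
Bars give, for each of the 7 libraries, the number of the 9 genes with a promoter peak of q at most 0.01 (left) and the number of such peaks at the 9 loci per 10000 peaks of the library (right). The promoter counts run from 1 to 6 within the Tomato+ libraries, and the locus counts lie between 7.98 and 9.01 in all libraries.

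Of the 61 regions, 5 were promoter regions of *Foxa1*, *Foxa2*, *Pax9*, *Hhex* and *Cdh1*, 3 were promoter regions of a neighbouring gene, and 53 were distal. A promoter region is one that overlaps the promoter window used for the counts above. The value of a region in a library is that of its most significant peak, which can lie outside that window. By mean fold enrichment, the 5 promoter regions ranked above 4.85% (*Foxa2*), 8.36% (*Foxa1*), 11.3% (*Cdh1*), 23.7% (*Hhex*) and 26.7% (*Pax9*) of the 13228 promoter regions with a peak in all 7 libraries, whose median was 5.75. The promoter of *Tango6*, the neighbour downstream of *Cdh1*, ranked above 61.3%, so the strongest region in that window belonged to a gene other than the member. In all, 29 of the 61 regions (47.5%) held a peak in every library, close to the 47.0% of all merged regions. Single-copy sequence made up 40 of the 61 (65.6%, against 62.4% of all), and 17 (27.9%, against 29.7%) had summits in sequence with at least 2 copies in the genome.

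**Figure D2:**
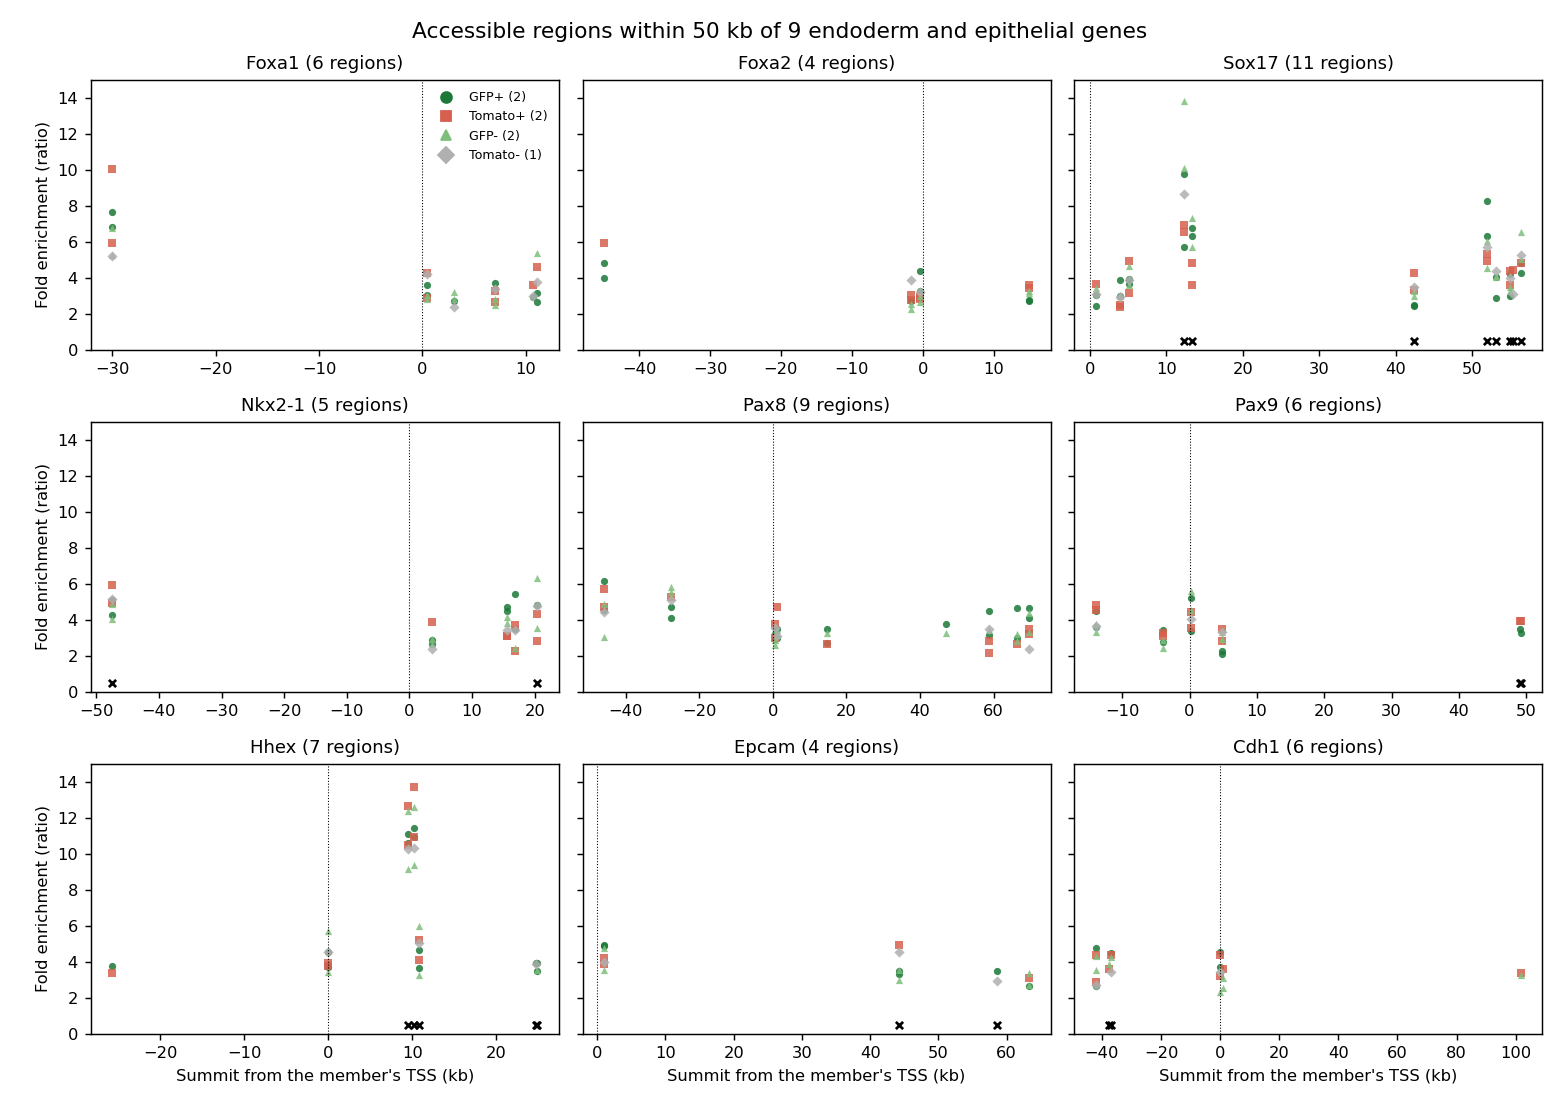
Each panel shows 1 gene, with the distance of each region's strongest summit from the TSS of the gene on the horizontal axis (kb, negative upstream) and the fold enrichment in each library on the vertical axis. Promoter regions of neighbouring genes are not drawn. Black crosses at the bottom mark regions that are not single-copy sequence, such as the high points near *Sox17* and *Hhex*.

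No region of the 9 loci was called between sorts by limma. At an adjusted p of at most 0.1 (limma on log2 fold enrichment with mouse line as covariate, Benjamini-Hochberg over 33859 regions with a peak in all 7 libraries), 0 of the 29 member regions were called in either direction, and 0.0% of all regions were called, so nothing is particular to these genes in that count. The smallest adjusted p of a member region was 0.762. At an unadjusted p below 0.05, 1 member region differed, against 6.06% of all regions. The log2 differences, positive minus negative, ran from -0.57 to 0.36 with a median of 0.03, and the median over all regions was -0.02. The 95% confidence interval of a member region was typically 0.387 wide on either side, so that smaller differences could not be told from 0. The interval is not adjusted for the number of regions tested. No region was called although the differences over all regions ran from -1.02 to 0.96, so differences well above 0.387 also went uncalled.

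**Figure D3:**
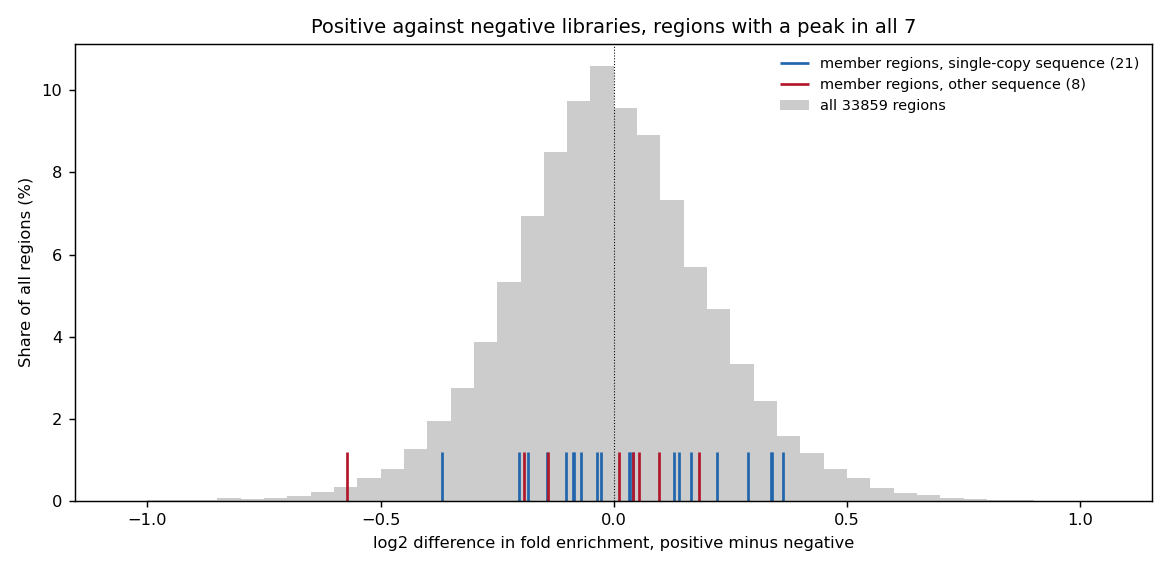
Grey bars give the share of all 33859 regions by log2 difference in fold enrichment, positive minus negative, and vertical lines mark the 29 member regions (21 in single-copy sequence in blue, 8 in other sequence in red). The member lines lie between -0.57 and 0.36, within the bars' range of -1.02 to 0.96, and the lowest is the *Sox17* region downstream of the gene.

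By rank, 1 of the 61 regions lay higher in all 4 positive libraries than in all 3 negative ones, and 0 lay lower, against backgrounds of 3.25% and 1.93% of all merged regions. Within the Hoxb1-GFP line, both GFP+ libraries ranked above both GFP- libraries in 13 regions (21.3%, against 21.9% of all regions) and below in 7 (11.5%, against 11.9%). Within the Mef2c-Cre line, both Tomato+ libraries ranked above the Tomato- library in 11 regions (18.0%, against 25.1%) and below in 17 (27.9%, against 29.5%). Opposite directions in the lines were seen in 6 regions, against 8.41% of all. The limma interaction of sort and line called 0 of the 29 regions (0.0% of all regions), and 0 had an unadjusted p below 0.05, against 4.55% of all.

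The pioneer factor genes *Foxa1* and *Foxa2* had weak promoters and 1 stronger region each at a distance. The *Foxa1* promoter region (chr12:57545387-57546097, 5' UTR, coding exon and intron) had a fold enrichment of 3.58 and 3.04 in GFP+, 2.89 and 4.26 in Tomato+, 3.03 and 2.82 in GFP- and 4.19 in Tomato- cells. The highest value of each sort was from the Mef2c-Cre line, and the groups overlapped (log2 difference -0.03, 95% CI -0.42 to 0.36, limma adjusted p = 0.996). Both of these highest values came from peaks inside the gene, outside the promoter window. In that window, the values were 2.83 and 3.34 in GFP+ and 2.89 in Tomato+ replicate 6, with no peak in Tomato+ replicate 8. The negative libraries had 2.28 in GFP- replicate 2 and 2.16 in Tomato- cells, with no peak in GFP- replicate 1. The *Foxa2* promoter region (chr2:148046003-148046585, intronic, before the nearest of 3 TSSs) had values of 3.25 and 4.36 in GFP+, 2.82 and 2.91 in Tomato+, 2.96 and 2.62 in GFP- and 3.21 in Tomato- cells. Both GFP+ values were above both GFP- values while both Tomato+ values were below the Tomato- value. The log2 difference over both lines was 0.16 (95% CI -0.24 to 0.57, limma adjusted p = 0.959), and the limma interaction of sort and line was not significant (adjusted p = 0.999).

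**Figure D4:**
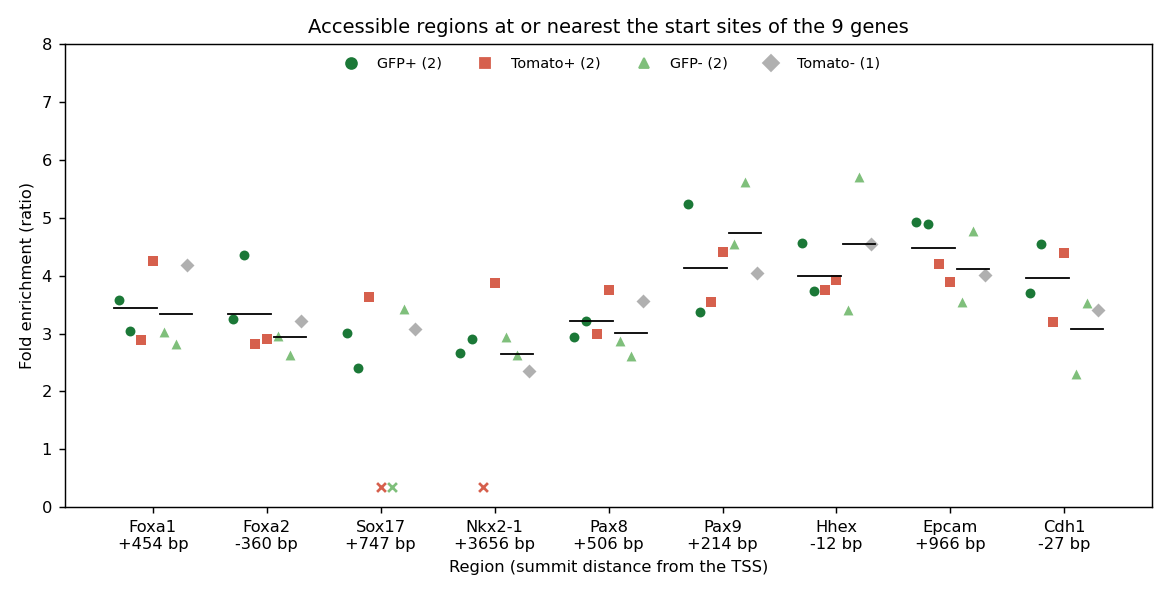
Fold enrichment in each library at the accessible region at or nearest the start site of each gene, with the distance of the strongest summit below the gene name. Horizontal bars are means of the 4 positive and the 3 negative libraries where all hold a peak, and crosses near 0 mark libraries without a deposited peak. All values lie between 2.31 and 5.71, and the values of the sorts overlap at every gene.

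A region 45.0 kb upstream of *Foxa2* (chr2:148091760-148092003, intergenic, 244 bp), whose sequence with the FOX match is printed above, had a peak in both GFP+ libraries (4.82 and 4.0) and in Tomato+ replicate 6 (5.91). The lists of Tomato+ replicate 8 and of the 3 negative libraries held no peak there. Its ranks were 6.94%, 13.6% and 5.32% of all deposited peaks where it was present. Most peaks of those lists did not pass q at most 0.01, so among the passing peaks it stood less high. It was 1 of 61 member regions with peaks in at least 3 positive and no negative library, a pattern shown by 1.76% of all merged regions, and 0 member regions had peaks in all 3 negative and no positive library, against 0.296%. Because Tomato+ replicate 8 lacked the region, the ranks of the sorts did not separate. With Tomato+ replicate 6 left aside, the peak was in both GFP+ libraries and in no other.

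The strongest single-copy region outside a promoter lay 30 kb upstream of *Foxa1* (chr12:57575928-57576753, in a coding exon and intron of *Ttc6*, 12225 bp from that gene's TSS). Its fold enrichment was 7.64 and 6.80 in GFP+, 10.03 and 5.95 in Tomato+, 5.29 and 6.78 in GFP- and 5.18 in Tomato- cells. A peak was present in all libraries, the 2 highest values were from positive ones, and the groups overlapped. The log2 difference was 0.36 ± 0.211 (SE, 95% CI -0.09 to 0.82, limma adjusted p = 0.879), the highest among the member regions. The other *Foxa1* and *Foxa2* regions had values from 2.28 to 5.36.

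Early endoderm and endothelium genes came next. *Sox17* had no region in its promoter window, and its gene body held 3 single-copy regions with values of 2.38 to 4.90. The nearest of them (chr1:4496473-4496900, 5' UTR, summit 747 bp from the TSS) had no deposited peak in Tomato+ replicate 8 and GFP- replicate 1, so both sorts had libraries with and without it. These 2 libraries held a peak closer to the TSS instead. In the promoter window, the values were 3.39 in Tomato+ replicate 8, 2.86 in GFP- replicate 1 and 2.62 in Tomato- cells. Only the first passed q at most 0.01, so these peaks did not form a region. The remaining 8 of the 11 regions all lay in repeated sequence outside the gene, where the 31-mers around the summit occurred a median of 33 to 15044 times in GRCm38. One of these was the only member region with an unadjusted p below 0.05 (chr1:4484894-4485111, 12.3 kb downstream of the TSS, 100% repeat-masked, 2934 copies). Its fold enrichment was 5.72 and 9.76 in GFP+, 6.90 and 6.51 in Tomato+, 10.1 and 13.8 in GFP- and 8.63 in Tomato- cells. The negative libraries were higher on the whole, but GFP+ replicate 4 lay above the Tomato- library (log2 difference -0.57 ± 0.213, SE, 95% CI -1.03 to -0.11, limma adjusted p = 0.762).

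The *Hhex* promoter region (chr19:37434243-37435743) covered the start of the gene and, at 1501 bp, was longer than the 4 other promoter regions. Its values were 4.56 and 3.74 in GFP+, 3.75 and 3.93 in Tomato+, 3.41 and 5.71 in GFP- and 4.54 in Tomato- cells. The lowest and the highest value were both from GFP- libraries (log2 difference -0.18, 95% CI -0.60 to 0.23, limma adjusted p = 0.95). Without GFP- replicate 2 the difference was -0.02, and without GFP- replicate 1 it was -0.37. The strongest member regions of all were a pair of intergenic regions 9.5 and 10.2 kb downstream of the *Hhex* TSS (chr19:37444304-37444563 and chr19:37444636-37445080). The second had a fold enrichment of 11.5 and 10.95 in GFP+, 10.9 and 13.7 in Tomato+, 12.6 and 9.36 in GFP- and 10.3 in Tomato- cells, and it ranked within the top 2.08% of every list. The sorts overlapped (log2 difference 0.10, 95% CI -0.29 to 0.48, limma adjusted p = 0.982). The summits of the pair were 651 to 665 bp apart, and in each library their pileups were nearly equal, for example 43 and 44 in GFP+ replicate 3, 54 and 58 in Tomato+ replicate 8 and 60 and 60 in Tomato- replicate 7. The pair was 93% and 75% repeat-masked, the 31-mers of the second summit occurred a median of 4 times in the genome, and another region 10.8 kb from the TSS was in sequence with 10560 copies. The part of repeated sequence in these values was not tested.

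**Figure D5:**
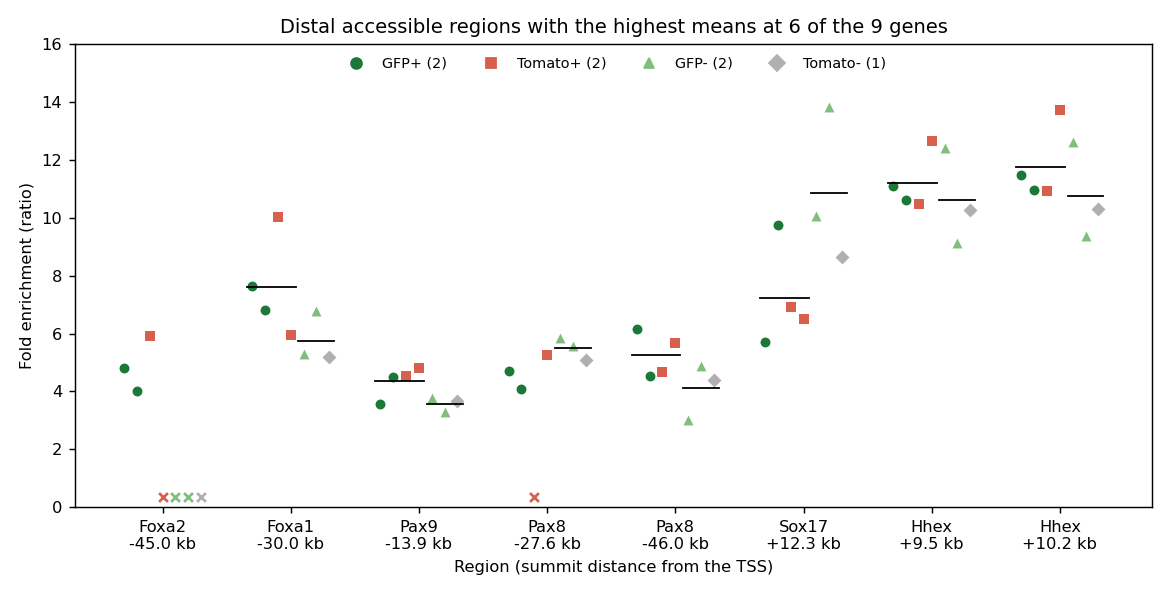
Fold enrichment in each library at the distal regions with the highest means at 6 genes, with the distance of the summit from the TSS below the gene name. Horizontal bars are means of the 4 positive and the 3 negative libraries where all hold a peak, and crosses near 0 mark libraries without a deposited peak, as in 4 of the 7 libraries at the *Foxa2* region. The *Pax9* ranks separated the sorts, whereas its fold enrichments, 3.57 to 4.81 and 3.29 to 3.78, overlap.

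Among the genes of thyroid, lung and pharyngeal pouches, *Nkx2-1* had the fewest deposited peaks in its promoter window. The only one was in Tomato+ replicate 8, with q at most 0.01. Within 1000 bp on either side of the TSS, every library except GFP- replicate 2 held a deposited peak. Of these, only those of Tomato+ replicate 8 (2.90) and Tomato- cells (3.13) passed q at most 0.01, and they formed no region. The region nearest the TSS was in the coding exon, 3656 bp downstream (chr12:56533064-56533412). Its values were 2.66 and 2.90 in GFP+, no peak and 3.88 in Tomato+, 2.94 and 2.62 in GFP- and 2.36 in Tomato- cells, so the Tomato+ libraries held the highest value and the one missing peak. The *Nkx2-1* region with the highest mean (chr12:56584234-56584627, 47.5 kb upstream) was 100% repeat-masked with 903 copies and had values of 4.03 to 5.95 with a log2 difference of 0.04 (95% CI -0.32 to 0.40, limma adjusted p = 0.992). A pair of single-copy regions 15.6 and 16.9 kb downstream lay in an intron of the pseudogene transcript *Sfta3-ps*, with values between 2.26 and 5.42.

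*Pax8* had 9 regions, all in single-copy sequence and none in its promoter window. A peak of q at most 0.01 was in that window in Tomato- cells alone (2.94). The region that spans its first exon (chr2:24474817-24475286, summit 506 bp downstream of the TSS) had values of 2.62 to 3.75 over the 7 libraries. The region with the highest mean lay 27.6 kb upstream (chr2:24502765-24503613, intergenic), with 4.70 and 4.07 in GFP+, 5.26 in Tomato+ replicate 8, 5.84 and 5.56 in GFP- and 5.10 in Tomato- cells. Tomato+ replicate 6 had no peak there, so it could not be fitted, and Tomato+ replicate 8 lay within the range of the negative libraries. A region 46.0 kb upstream (chr2:24521345-24522375, intergenic) had 6.16 and 4.53 in GFP+, 4.68 and 5.69 in Tomato+, 3.02 and 4.88 in GFP- and 4.41 in Tomato- cells. The 2 highest values were from positive libraries, and GFP- replicate 2 lay above 2 of them (log2 difference 0.34, 95% CI -0.09 to 0.76, limma adjusted p = 0.879).

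The only rank call of the 61 regions was at *Pax9*, a pouch and sclerotome gene, 13.9 kb upstream of its TSS (chr12:56681059-56681944, intergenic, 886 bp, single-copy), where the sequence printed above lies. The ranks were 15.6% and 10.6% in GFP+, 10.2% and 10.1% in Tomato+, 16.8% and 21.0% in GFP- and 16.6% in Tomato- cells. All positive libraries ranked higher, GFP+ replicate 3 only narrowly over the Tomato- library. The fold enrichments were 3.57 and 4.50, 4.53 and 4.81, 3.78 and 3.29, and 3.67 in the same order, and on that scale GFP+ replicate 3 fell below both GFP- replicate 1 and the Tomato- library. The log2 difference was 0.22 ± 0.172 (SE, 95% CI -0.15 to 0.59, limma adjusted p = 0.924), and the rank call was lost when the position from the top of each list was used in place of the percent. The *Pax9* promoter region (chr12:56695386-56696026) had the highest mean of the 5 members' promoters, with 5.23 and 3.37 in GFP+, 3.54 and 4.41 in Tomato+, 4.55 and 5.62 in GFP- and 4.05 in Tomato- cells. GFP- replicate 2 was highest and GFP+ replicate 4 lowest (log2 difference -0.20, 95% CI -0.62 to 0.21, limma adjusted p = 0.940). The difference was -0.02 without GFP+ replicate 4 and -0.33 without GFP+ replicate 3. A region in a coding exon 4.8 kb downstream of the TSS was lowest in the GFP+ libraries (2.25 and 2.09), with 3.47 and 2.84 in Tomato+ and 2.91 to 3.31 in negative libraries.

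Each adhesion gene held a deposited peak near its start in all libraries. The *Epcam* region (chr17:87636471-87637262, 5' UTR, coding exon and intron) lay downstream of the promoter window, with its summit 966 bp from the TSS. It had 4.93 and 4.90 in GFP+, 4.2 and 3.89 in Tomato+, 3.55 and 4.77 in GFP- and 4.01 in Tomato- cells. Both GFP+ values were above all others, and the sorts overlapped through the Tomato+ libraries (log2 difference 0.13, 95% CI -0.24 to 0.49).

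The *Cdh1* promoter region (chr8:106603232-106603971) contained the 3 E-box matches printed above. Its fold enrichment was 3.70 and 4.55 in GFP+, 3.19 and 4.39 in Tomato+, 2.31 and 3.53 in GFP- and 3.41 in Tomato- cells. In 3 of 4 positive libraries it was above every negative library, with Tomato+ replicate 6 below 2 of them (log2 difference 0.34, 95% CI -0.09 to 0.76, limma adjusted p = 0.879). The difference was 0.16 without GFP- replicate 1 and ran up to 0.47 when other single libraries were left out. The peak of the region passed q at most 0.01 in 5 of the 7 libraries, with a -log10 q of 0.609 in GFP- replicate 1, 1.86 in Tomato+ replicate 6 and 6.66 in GFP+ replicate 4. The value for each library except GFP+ replicate 4 and GFP- replicate 1 came from a peak inside the gene that did not reach the E-boxes. In the promoter window, the values were 3.05 and 4.55 in GFP+ and 3.42 in Tomato+ replicate 8, with no peak in Tomato+ replicate 6. The negative libraries had 2.31 and 3.32 in GFP- and 3.01 in Tomato- cells, so GFP+ replicate 3 lay below GFP- replicate 2. *Cdh1* is an epithelial gene, and a peak near its start was deposited in cells sorted by the SHF reporters as well as in the cells left over. The paper refers to epithelial properties of SHF cells and names *Cdh1* among genes with lower RNA in *Hoxb1*-deficient progenitor regions. Those regions were dissected but not sorted, and came from an earlier stage than these libraries. The *Tango6* promoter downstream had 5.82 to 7.32 and a log2 difference of -0.14.

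Promoters of 22 other endoderm and epithelial genes were counted in the same way. A promoter peak was found for 6 to 10 of them in positive and 6 to 11 in negative libraries, and of their 16 promoter regions 1 ranked higher in all positive and 2 in all negative libraries, against 4.31% and 0.851% of all promoter regions. Of the 9 regions that could be fitted, 0 were called by limma and 1 had an unadjusted p below 0.05. Both regions that ranked higher in negative libraries were at *Sox2*, a gene of the foregut and the neural tube. The stronger one (chr3:34649297-34650092) had 3.47 and 2.86 in GFP+, 3.08 and 4.26 in Tomato+, 5.07 and 4.49 in GFP- and 4.80 in Tomato- cells. Each negative library was above each positive one (log2 difference -0.55, 95% CI -0.93 to -0.17, limma adjusted p = 0.757). The promoter of *Gata6*, a factor shared by endoderm and heart, was the one that ranked higher in positive libraries, with 3.99 to 5.30 in positive and 3.71 to 3.86 in negative cells (log2 difference 0.21, limma adjusted p = 0.927). The liver and keratin genes *Hnf4a*, *Ttr*, *Krt8* and *Krt18* had no promoter region.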

How the data were processed

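The authors aligned ATAC-seq reads to GRCm38 with SNAP, removed duplicates, improper pairs and blacklisted regions, and called narrow peaks per library, without pooling replicates. The methods name MACS2 2.1.1, while the header of the Tomato+ replicate 6 list names 2.1.0.20150731, no control, a p limit of 0.01, and tags shifted by 37 bp and extended to 73 bp, which can move summits. The deposited pileup is a coverage signal not scaled to depth, the deposited fold enrichment is a ratio to local background, and the deposited -log10 p-value and q-value grow with depth. Tag numbers were computed from the background rates of the lists. The numbers of samples limit precision, and p-values measure the spread between libraries. The paper speaks of biological and technical replicates, and the labels do not say whether the libraries of a group came from separate pools of embryos.

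Where a peak had several summits, the most significant was used. Peaks with q at most 0.01 were merged (overlap of 1 bp), and regions from at least 2 libraries kept. Genes and TSSs are curated RefSeq transcripts of GRCm38.p6. Fits used limma 3.58.1 in R 4.3.3, and exact permutation tests scipy 1.17.1. Missing peaks were ranked at 100%. Copies are the median genome count of 31-mers within 50 bp of the summit, and single-copy regions have a median under 2 and at most 50% repeat-masked bases. Scripts were tested on simulated data. All promoter regions of the members, distal regions called by fit or rank and the highest mean per gene were reported, except 1 region in the *Epcam* window that is not reported here, and other regions were chosen after their values were seen. The members and lists were chosen with earlier results of these data known. Alternatives covered values, scaling, filters, windows and single libraries. The authors' differential peaks were not used.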

Additional observations from a re-analysis of the deposited data

Results flagged for a closer look

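The *Foxa2* promoter region moved in opposite directions in the 2 mouse lines. Both GFP+ libraries lay above both GFP- libraries, whereas both Tomato+ libraries lay below the Tomato- library, and the effect in the Mef2c-Cre line minus that in the Hoxb1-GFP line was -0.52 on the log2 scale (limma interaction, adjusted p = 0.999). Such opposite ranks were seen in 6 of the 61 member regions and in 8.41% of all merged regions, and the Tomato- group is 1 library. Of 14 values tested for a library far from the others of the 4 positive ones, 0 passed Dixon's critical value, which chance passes in about 1 of 20.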

How the results depend on the processing

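No paired analysis was made, because the sample titles number every library differently and do not say which libraries came from the same sort. In every fit with limma that was run, 0 member regions were called, and 0 to 3 had an unadjusted p below 0.05, 0 of them in single-copy sequence in the reported fit. The rank calls (1 higher in positive, 0 in negative libraries) became 0 and 1 with the position from the top of the list, the latter at a repeated *Sox17* region, and 2 higher in positive libraries with regions from at least 1 library. Leaving out each library gave 1 to 4 regions higher in positive and 0 to 3 in negative libraries, the *Pax9* region being among the former each time. The difference in promoter peaks, 0.083 genes, became -0.083 with 500 bp and -0.167 with 1000 bp on either side (the latter chosen after seeing the data), -0.833 with any deposited peak and 0.25 with q at most 0.0001, and ran from -0.667 to 1.0 without single libraries, below 0 without GFP+ replicate 4, Tomato+ replicate 8 or either GFP- library. The difference in locus peaks, 0.062 per 10000, became -0.106 with 25 kb windows, -0.114 with all deposited peaks, 1.355 with q at most 0.0001 (exact permutation p = 0.171), 0.182 with peaks whose nearest TSS was a member's and -0.113 in single-copy sequence (added after seeing the data), and ran from -0.134 to 0.364 without single libraries, below 0 without GFP+ replicate 4, GFP- replicate 1 or the Tomato- library. The *Foxa1* promoter difference of -0.03 was 0.01 by pileup, 0.00 without centring and 0.01 without mouse line, and ran from -0.12 to 0.12 without single libraries. On the same scale, leaving out single libraries gave -0.02 to 0.10 at the repeated *Nkx2-1* region, -0.01 to 0.23 at the second *Hhex* region 0.00 to 0.38 at the *Foxa2* promoter, 0.21 (without Tomato+ replicate 6 or the Tomato- library) to 0.48 at the *Foxa1* region 30 kb upstream, 0.13 (without the Tomato- library) to 0.33 at the distal *Pax9* region, -0.74 to -0.34 (without GFP+ replicate 3) at the *Sox17* region and -0.23 (without GFP- replicate 1) to -0.09 at *Tango6*. Depth and 7 libraries limit all of these differences.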
